A study of Homo sapiens with 3 samples.

Results

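Growth factor receptor tyrosine kinases were followed in MDA-MB-231, an established triple-negative line of human breast cancer cells. The cells had received small interfering RNAs (siRNAs) that target TMPO-AS1, a long non-coding RNA. The group held 10 receptor genes chosen by name: EGFR, ERBB2, ERBB3, MET, AXL, FGFR1, IGF1R, INSR, DDR1 and PDGFRB. A gene was read from probe sets annotated with its symbol alone, and the brightest of them stood for it. This gave a value for 9 of the 10, out of 33616 genes in all, and all 9 passed the filter on dim signals (mean log2 signal of at least 4.42), which left 16808 genes. The exception was DDR1, whose 1 probe set also carries the symbol of the microRNA gene MIR4640.

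The series holds 3 Affymetrix arrays of cells grown in DMEM and harvested 48 hours after transfection. Control siRNA (siControl) is represented by 1 array, and siTMPO-AS1 #1 and siTMPO-AS1 #2 by 1 array each. No label names separate cultures. Any p-value below rests on the spread between the 2 siRNA arrays and on a prior shared by all genes. That spread may be technical and includes differences between both siRNAs, and the 1 control array adds none to it. Signals are the log2 values deposited by the authors, and a log2 ratio is the signal on an siRNA array minus that on the control array. Signals of different genes come from different probes and were not compared with each other.

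Receptor tyrosine kinases span the cell membrane. Binding of a ligand outside the cell brings receptors together, they phosphorylate each other inside it, and adaptor proteins then recruit the RAS and PI3K pathways. MDA-MB-231 cells lack the estrogen receptor and ERBB2 amplification, and EGFR, MET and AXL are well known for roles in the growth and invasion of such basal-like, mesenchymal breast cancer cells. The labelled identity was checked against markers. Of 6 mesenchymal-line markers 5 passed the filter on dim signals, among them VIM (log2 signals 16.52, 16.28 and 16.45 on the control, #1 and #2 arrays) and CD44 (13.70, 13.43 and 13.60). VIM lies above 16, the log2 of the largest value of a 16-bit scan, so its scale is uncertain. The others that passed were FOSL1 (15.10, 14.60 and 14.66), CAV1 (15.47, 15.99 and 14.08, 2.62-fold lower with #2) and AXL, described below. SPARC did not pass, with a control signal of 2.96 and log2 ratios of -0.14 and 0.74. Of 5 luminal breast markers 2 passed it, GATA3 (5.25, 6.66 and 5.61) and SPDEF (7.10, 4.68 and 5.72). The estrogen receptor gene ESR1 (3.34, 3.61 and 3.51), the progesterone receptor gene PGR (3.55, 3.92 and 4.51) and FOXA1 (4.48, 4.20 and 4.23) did not. The filter was also passed by 4 of 6 epithelial markers: EPCAM, KRT8, KRT18 and KRT19, with control signals of 10.92, 14.82, 13.00 and 12.23.

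The target TMPO-AS1 had log2 signals of 4.83 in control cells, 4.37 with #1 and 4.28 with #2, lower on both siRNA arrays (log2 ratios -0.46 and -0.55). These signals lie within the range of the array's background control probe sets, so the size of a difference in this RNA cannot be read firmly from them. Over all genes tested the log2 ratios had a median of 0.02 and an SD of 0.80 with #1, and a median of 0.09 and an SD of 0.59 with #2. The array's 23 background control probe sets had median log2 signals of 2.61, 2.66 and 2.67 on the control, #1 and #2 arrays, and their highest were 7.20, 6.67 and 8.52. The file gives no call of detection for a probe set.

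Of the 9 receptor genes with a value, ERBB3 stood at least 1.5-fold above control on both siRNA arrays, and none stood 1.5-fold below control on both. These are 1 of 9 and 0 of 9, where 5.42% and 4.07% of all genes tested did so. IGF1R alone passed 1.5-fold in opposite directions, as 3.3% of all genes tested did. With #1, 3 of 9 receptors were at least 1.5-fold higher (ERBB2, ERBB3 and IGF1R; 16.6% of all genes) and 2 were at least 1.5-fold lower (MET and AXL; 18.8% of all genes). With #2, 1 was higher by that rule (ERBB3; 16.1% of all genes) and 2 were lower (IGF1R and PDGFRB; 10.4% of all genes). The count of 3 includes the brightest ERBB2 probe set; with either of the other two ERBB2 probe sets, which had log2 ratios of 0.22 and 0.16 with #1, it is 2 of 9. With #2 these had 0.52 and 0.70, so the dimmest would add 1 to the higher ones. Counts this small do not set the receptors apart from genes at large. The median log2 ratio of the 9 was -0.16 with #1 and -0.09 with #2; the latter was 0.016 under either other rule for probe sets, so it has no settled direction.

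The pooled test found no receptor that differed from control. limma, fitted over all genes with both siRNA arrays against the control array, called 0 of 9 receptors and 0 of 16808 genes (0%) at an adjusted p of 0.05. This held whether or not it used an intensity trend. In the same fits 261 genes had an unadjusted p under 0.05 without the trend and 287 with it. Both counts are less than a share of 0.05 of the genes tested. Every receptor had an adjusted p of 1.00. With 1 residual degree of freedom, the fit took most of its spread from a prior shared by all genes, and a count of 0 does not show that the receptors were alike on the arrays. Fewer cells of one kind and less RNA per cell cannot be told apart in such bulk RNA.

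**Figure D1:**
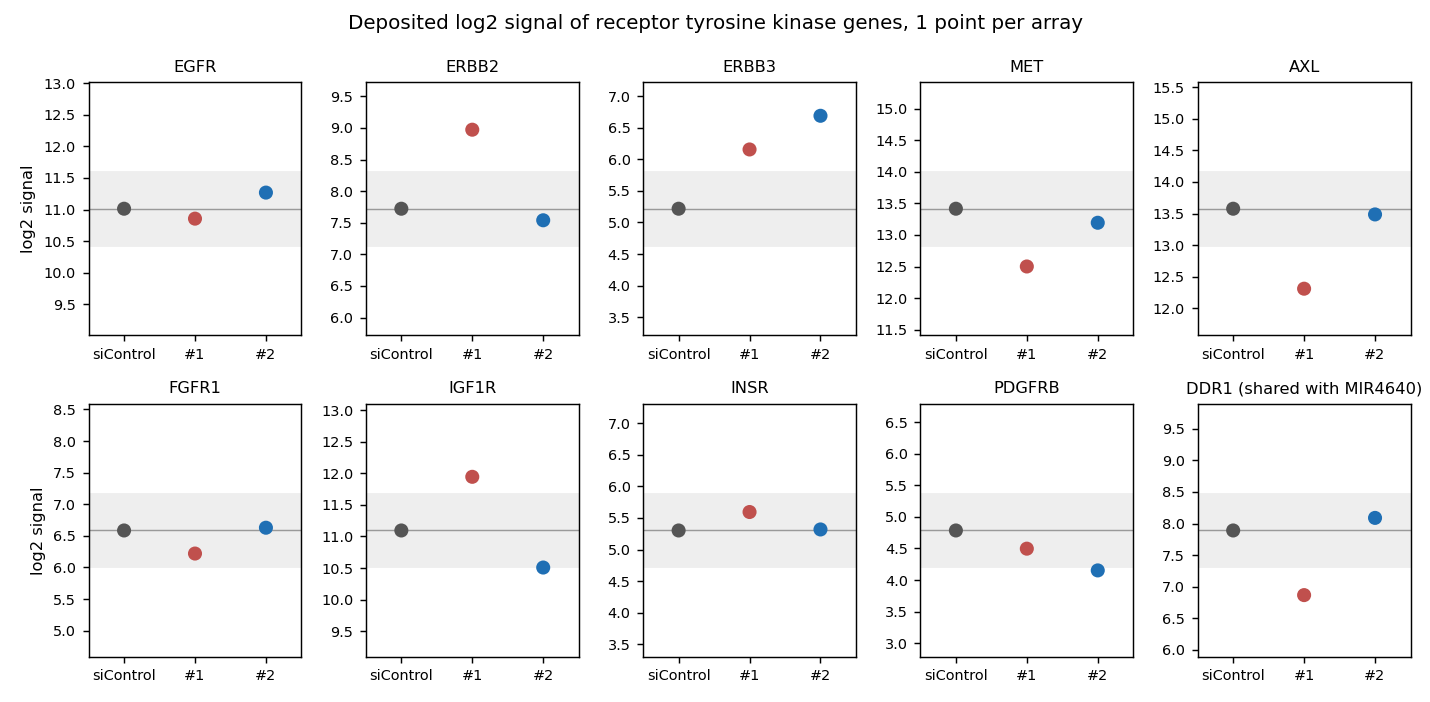
Deposited log2 signal (vertical axis) on the siControl, siTMPO-AS1 #1 and siTMPO-AS1 #2 arrays (horizontal axis), 1 point per array and 1 panel per gene, each panel spanning the same number of log2 units around its control value. The grey band marks 1.5-fold either side of control: both siRNA points leave it in the same direction for ERBB3 alone, while MET, AXL and the shared DDR1 probe set leave it below with #1 only.

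Within the EGFR family only ERBB3, of the 3 listed genes, passed 1.5-fold in the same direction with both siRNAs. ERBB3, which binds neuregulins, has a weak kinase of its own and signals by pairing with ERBB2 or EGFR, had log2 signals of 5.22 in control cells, 6.16 with #1 and 6.69 with #2. Both siRNA arrays were above the control array, by 1.92-fold and 2.77-fold (log2 ratios 0.94 and 1.47). The mean log2 ratio was 1.20 (limma SE 0.49, adjusted p = 1.00, higher on 2 of 2 arrays), the largest of the 9 receptors in size. With #1, 93.5% of genes tested had a lower log2 ratio than ERBB3, and with #2, 98.8% did. Among the 3095 genes whose control signal lay within 0.5 log2 units of that of ERBB3, these shares were 95.9% and 99.3%. In the same signal range the background control probe sets also lay above control: the 3 with control signals between 4 and 6 had log2 ratios of 0.02 to 0.42 with #1 and 0.16 to 0.66 with #2. Their part in the ERBB3 value was not tested.

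ERBB3 is a gene of epithelial breast cells, and epithelial and luminal markers were therefore read beside it. Of 6 epithelial markers listed, 4 passed the filter. The medians over all genes tested, for comparison, were 0.02 with #1 and 0.09 with #2. EPCAM, an epithelial adhesion molecule, had log2 ratios of 0.34 and 2.30, and the keratin gene KRT8 had 0.20 and 0.97. KRT19 had 0.17 and 0.08, and KRT18 lay on either side of control, with -0.70 and 0.90. The cadherin gene CDH1 stayed under the filter (log2 signals 3.64, 3.08 and 3.37), and so did the splicing regulator gene ESRP1 (3.76, 3.01 and 5.10). The luminal markers did not share 1 direction: SPDEF lay below control with both siRNAs (-2.42 and -1.39), GATA3 lay above it (1.41 and 0.36), and FOXA1, under the filter, had -0.27 and -0.25. Whether these markers and ERBB3 share a source was not tested.

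EGFR, the receptor of EGF and its relatives, had log2 signals of 11.01 in control cells, 10.86 with #1 and 11.27 with #2. The control array lay between the siRNA arrays (log2 ratios -0.16 and 0.26; mean 0.05, SE 0.47), and neither siRNA moved it by 1.5-fold.

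ERBB2, the family member with no known ligand and the preferred partner of the others, was read by 3 probe sets that did not give the same picture. The brightest had log2 signals of 7.72 in control cells, 8.97 with #1 and 7.54 with #2, so it stood 2.38-fold above control with #1 and 1.14-fold below with #2 (log2 ratios 1.25 and -0.18; mean 0.53, SE 0.74). Its annotation gives the symbol without a gene identifier. A second ERBB2 probe set, dimmer than the filter, had 3.50, 3.66 and 4.20 (log2 ratios 0.16 and 0.70). The probe set annotated with both ERBB2 and MIR4728 had 5.93, 6.14 and 6.44 (log2 ratios 0.22 and 0.52). The 2 dimmer probe sets were thus highest with #2, and the brightest was highest with #1. No direction for ERBB2 is given for this reason.

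**Figure D2:**
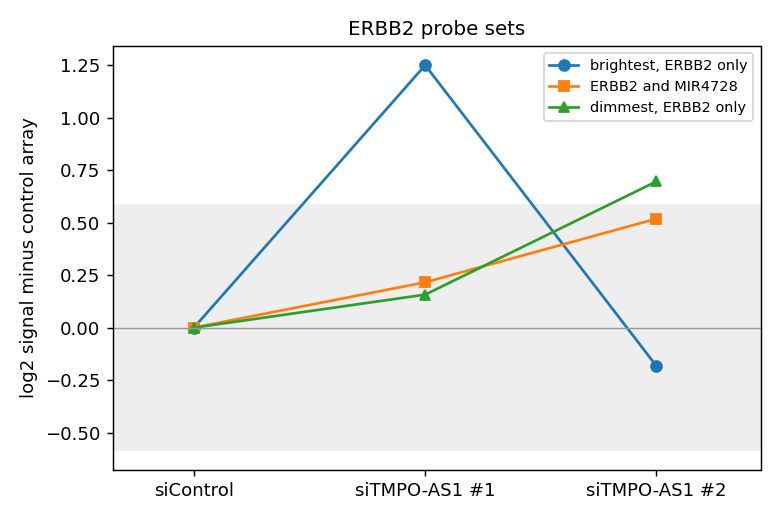
Log2 signal minus the control array (vertical axis) of the 3 ERBB2 probe sets on each array (horizontal axis); lines join the values of 1 probe set and the grey band marks 1.5-fold. The brightest peaks with siTMPO-AS1 #1 at 1.25, whereas the other two are highest with siTMPO-AS1 #2, at 0.52 and 0.70.

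Of the receptors linked to invasion, MET and AXL were lower with #1 and near control with #2. MET, the receptor of hepatocyte growth factor, had log2 signals of 13.41 in control cells, 12.50 with #1 and 13.19 with #2. It lay 1.88-fold under control with #1 and 1.17-fold under it with #2 (log2 ratios -0.91 and -0.22; mean -0.57, SE 0.52, lower on 2 of 2 arrays). AXL, the receptor of GAS6, had 13.58, 12.31 and 13.49, so #1 lay 2.40-fold and #2 1.06-fold under the control array (log2 ratios -1.27 and -0.09; mean -0.68, SE 0.66, lower on 2 of 2 arrays). With #1, 11.2% of genes tested had a lower log2 ratio than MET and 6.88% had a lower one than AXL. Among genes of like control signal these shares were 20.1% and 15.1%, since bright genes spread more widely with #1 (SD 1.06 near MET against 0.55 near ERBB3). Both siRNA arrays of MET and of AXL lay below the control array, but the siRNA arrays differed from each other by more than #2 did from control.

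DDR1, a receptor of collagen, had a pattern like theirs on its shared probe set, with log2 signals of 7.89 in control cells, 6.87 with #1 and 8.09 with #2 (log2 ratios -1.02 and 0.20). The array cannot separate DDR1 from MIR4640 there, and this value enters no count above.

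The start regions of MET and AXL are shown because both genes were lower with #1. Each is the 250 bases before the annotated start (for AXL, the first of 2 annotated starts), from RefSeq, build GRCh38.p14, plus strand, 5′ to 3′. Capitals mark GC boxes, the letters GGGCGG or their reverse complement, which the Sp family of factors can bind.
MET, chr7:116671946-116672195: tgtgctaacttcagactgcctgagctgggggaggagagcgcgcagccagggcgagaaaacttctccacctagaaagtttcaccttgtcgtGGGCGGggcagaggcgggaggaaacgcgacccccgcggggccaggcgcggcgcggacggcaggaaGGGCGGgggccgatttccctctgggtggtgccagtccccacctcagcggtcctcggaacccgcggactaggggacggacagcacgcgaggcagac
AXL, chr19:41218973-41219222: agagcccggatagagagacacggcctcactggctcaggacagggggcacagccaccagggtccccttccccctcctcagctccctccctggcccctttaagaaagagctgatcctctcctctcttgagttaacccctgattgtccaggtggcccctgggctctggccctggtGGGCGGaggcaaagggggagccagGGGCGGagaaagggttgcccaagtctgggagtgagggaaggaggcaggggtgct
Each window holds 2 GC boxes and no copy of the AP-1 motif TGANTCA, searched on both strands with no overlap between the motifs. Of 35116 such windows over the genome, 42.6% hold a GC box and 6.57% hold TGANTCA. IGF1R, which had the opposite direction with #1, also holds 2 GC boxes, EGFR holds 2 at its first start and INSR holds 4. Among the 8 receptor genes matched to a window, which leave out ERBB3 and FGFR1, 6 held a GC box at their first one. With #1 these lay at least 1.5-fold above control (IGF1R), within 1.5-fold of it (EGFR, INSR and PDGFRB) or at least 1.5-fold below it (MET and AXL). ERBB2 and DDR1 held none at their first window. A match of letters is a description and not evidence of binding.

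In the insulin receptor family the siRNAs parted on IGF1R. IGF1R, the receptor of insulin-like growth factors, had log2 signals of 11.09 in control cells, 11.94 with #1 and 10.51 with #2. It stood 1.8-fold above control with #1 and 1.5-fold below with #2 (log2 ratios 0.85 and -0.59; mean 0.13, SE 0.74). The control array lay between them, and the value with #2 is only just past the 1.5-fold rule. The difference between the siRNA arrays was 2.70-fold, and 97.7% of genes tested had a lower value of #1 minus #2. ERBB2 had the same difference on its brightest probe set, 2.70-fold. With #1, 91.5% of genes tested had a lower log2 ratio than IGF1R, and with #2, 10.4% did. Among genes of like control signal these shares were 89.3% and 14.0%. INSR, the insulin receptor, had 5.30, 5.59 and 5.32 (log2 ratios 0.29 and 0.02; mean 0.15, SE 0.45), so neither siRNA array left the band of 1.5-fold.

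FGFR1 stayed within 1.5-fold of control, and PDGFRB passed it with #2. FGFR1, a receptor of fibroblast growth factors, had log2 signals of 6.59 in control cells, 6.22 with #1 and 6.63 with #2 (log2 ratios -0.37 and 0.04; mean -0.16, SE 0.47). PDGFRB, the receptor of platelet-derived growth factor that marks fibroblasts and pericytes, had 4.78, 4.50 and 4.15 (log2 ratios -0.29 and -0.63; mean -0.46, SE 0.46). Both siRNA arrays lay below control for PDGFRB, by 1.22-fold and 1.55-fold, but its signal with #2 was under the 4.42 that was asked of a gene's mean. With #2, 9.31% of genes tested, and 4.04% of genes of like control signal, had a lower log2 ratio than PDGFRB. The filter on mean signal leaves out genes this dim that fell on the siRNA arrays. The share of 4.04% is therefore too low, by an amount that was not measured. Of 7 fibroblast markers 3 passed the filter, PDGFRB among them, and they went both ways: the matrix genes LUM (1.13 and 0.62) and COL1A1 (0.19 and 1.22) lay above control.

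**Figure D3:**
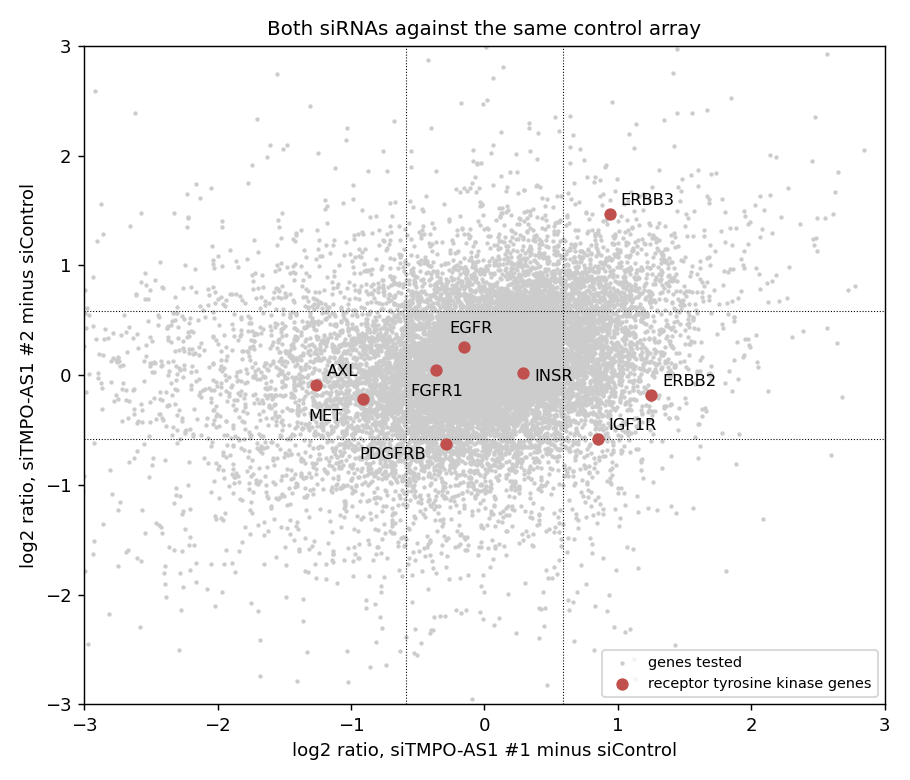
Log2 ratio with siTMPO-AS1 #2 (vertical axis) against log2 ratio with siTMPO-AS1 #1 (horizontal axis); grey points are the genes tested, red points the 9 receptor genes, and dotted lines mark 1.5-fold. Axes end at 3 log2 units, outside which 147 genes lie. ERBB3 sits in the upper right corner, IGF1R at the edge of the lower right one, and AXL and MET left of the lines with #2 values near 0; both axes share the control array.

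ERBB3 was the 1 receptor past 1.5-fold in the same direction with both siRNAs, and the genes nearest to it by distance between the pairs of log2 ratios were sought among 16011 named genes tested. They were MTURN (log2 ratios 0.95 and 1.45, distance 0.022) and SORL1, a sorting receptor gene (0.91 and 1.41, distance 0.063). There were 7 genes within a distance of 0.1. With 3 arrays such likeness is only a description.

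Ligand genes were read next, and several of those for the receptors above differed between the siRNAs. Of 29 listed, 27 had a value and 13 passed the filter, with medians of -0.18 with #1 and 0.65 with #2. The medians over all genes tested were 0.02 and 0.09. At 1.5-fold on both arrays 3 of 13 were higher, 1 was lower and 1 went opposite ways, where 5.42%, 4.07% and 3.3% of all genes tested did. With #1 alone, 3 of 13 were higher and 4 were lower by 1.5-fold, where 16.6% and 18.8% of all genes tested were. With #2 alone, 7 were higher and 2 were lower, where 16.1% and 10.4% were. These counts include the genes past 1.5-fold with both, and limma called 0 of the 13. GAS6, which activates AXL, had log2 signals of 6.75 in control cells, 7.72 with #1 and 8.0 with #2, both above control by 1.96-fold and 2.38-fold (mean log2 ratio 1.11, SE 0.45, adjusted p = 1.00). On the control and #2 arrays GAS6 lay under the highest background control probe set. PROS1, which activates the AXL relatives TYRO3 and MERTK, had log2 ratios of 1.41 and 0.86, and PDGFC, a ligand of platelet-derived growth factor receptors, had 1.40 and 0.66. PDGFA, a ligand of PDGFRA, went the other way, with -1.84 and -0.38, but its signals lay under the highest background control probe set on every array. PROS1 and PDGFA thus act on receptors outside the 10, and PROS1, PDGFC and PDGFA are all named after their values were seen. AXL itself, as given above, lay below control with #1, so receptor and ligand differed in direction there.

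EGFR ligands had no common direction. EREG (epiregulin) had log2 signals of 7.88 in control cells, 5.97 with #1 and 7.15 with #2, below control by 3.76-fold and 1.66-fold (mean log2 ratio -1.32, SE 0.66). On both siRNA arrays EREG lay under the highest background control probe set. HBEGF, the heparin-binding ligand, had 11.60, 9.90 and 12.73, lower by 3.25-fold with #1 and higher by 2.18-fold with #2. TGFA had log2 ratios of -0.18 and 0.65. The neuregulin gene NRG1, a ligand of ERBB3, had log2 signals of 13.97 in control cells, 13.65 with #1 and 12.60 with #2 (log2 ratios -0.32 and -1.38). NRG1 thus lay below control on both arrays on which ERBB3 lay above it. NRG2 had -0.23 and -0.31.

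Ligand genes of the remaining receptors went both ways. FGF5, a ligand of FGFR1, had log2 signals of 9.58, 9.65 and 11.31, which is 3.31-fold above control with #2 and 1.05-fold with #1. IGF1 had log2 ratios of -0.06 and -0.56, and PDGFB, a ligand of PDGFRB, had -0.59 and -0.40. COL1A1, a collagen chain and so part of the ligand of DDR1, had 0.19 and 1.22. The hepatocyte growth factor gene HGF was under the filter, with 3.50, 3.91 and 3.31.

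Adaptor and docking protein genes, which couple the receptors to RAS and PI3K signalling, were mostly within 1.5-fold of control with #2. Of 18 listed, 15 were tested, with medians of -0.10 and 0.11. With both siRNAs 0 were higher and 0 were lower by 1.5-fold, where 5.42% and 4.07% of all genes tested were. SHC1 went opposite ways, as 3.3% of all genes tested did, and limma called 0 of the 15. With #1, 6 of 15 were lower and 2 were higher, where 18.8% and 16.6% of all genes tested were. With #2, 0 were lower and 2 were higher, where 10.4% and 16.1% were. Several of these adaptor genes are bright, and bright genes spread more widely with #1. The shares over all genes are not matched for signal, so the 6 lower ones do not set the adaptors apart. GRB2, the adaptor that carries SOS1 to the receptors, had log2 signals of 12.96 in control cells, 8.97 with #1 and 13.07 with #2, so that it lay 15.9-fold below control with #1 alone. PTPN11, the phosphatase SHP2 that promotes receptor signalling, had 14.06, 11.24 and 14.39, or 7.06-fold below control with #1 alone. GRB2 and PTPN11 are singled out after their values were seen. SHC1, the adaptor between receptors and GRB2, had log2 ratios of -1.26 and 1.06.

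Adaptors with the same direction on both arrays had smaller ratios. CRKL had log2 ratios of 0.52 and 0.95, the RAS exchange factor gene SOS1 had 0.72 and 0.49, and NCK1 had 0.30 and 0.54. IRS1, the docking protein of IGF1R and INSR, had 0.46 and 0.26, and VAV2, a guanine nucleotide exchange factor gene, had -0.68 and -0.19.

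Genes that restrain the receptors or direct their turnover went both ways. Of 24 listed, 22 were tested (medians -0.11 and 0.05), and limma called 0. With both siRNAs 1 was higher and 2 were lower by 1.5-fold, where 5.42% and 4.07% of all genes tested were, and STAM went opposite ways, as 3.3% did. CBLB, a ubiquitin ligase that marks receptors for degradation, had log2 signals of 12.16 in control cells, 13.48 with #1 and 13.27 with #2, above control by 2.5-fold and 2.17-fold (mean log2 ratio 1.22, SE 0.44, adjusted p = 1.00). PTPN1, the phosphatase that acts on INSR and other receptors, had 14.53, 13.79 and 12.86, below control by 1.66-fold and 3.18-fold. SH2B3, an adaptor that restrains receptor signalling in blood cells, had 5.86, 4.23 and 4.76, below control by 3.09-fold and 2.14-fold. These SH2B3 signals lie under the highest background control probe set of each array, so the size of its differences is uncertain. The siRNA arrays lay on the same side of control for CBLB, PTPN1 and SH2B3.

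STAM, which sorts ubiquitinated receptors in endosomes, had log2 ratios of 0.68 and -0.98. PTPRF, a receptor phosphatase, had 0.41 and 1.24, and the deubiquitinase gene USP8 had 0.53 and 0.34. With #1, 8 of the 22 were at least 1.5-fold lower and 3 higher (18.8% and 16.6% of all genes), and with #2, 3 were lower and 4 higher (10.4% and 16.1% of all genes). These counts include the genes past 1.5-fold with both, and the shares over all genes are again not matched for signal. Among the lower ones with #1 were ERRFI1, an inhibitor of EGFR family kinases, with log2 ratios of -1.51 and -0.06, and CBL, the relative of CBLB, with -1.55 and 0.25; both are named after their values were seen. The log2 signals of ERRFI1, between 17.65 and 19.16, lie above 16, the log2 of the largest value of a 16-bit scan, so its scale is uncertain.

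**Figure D4:**
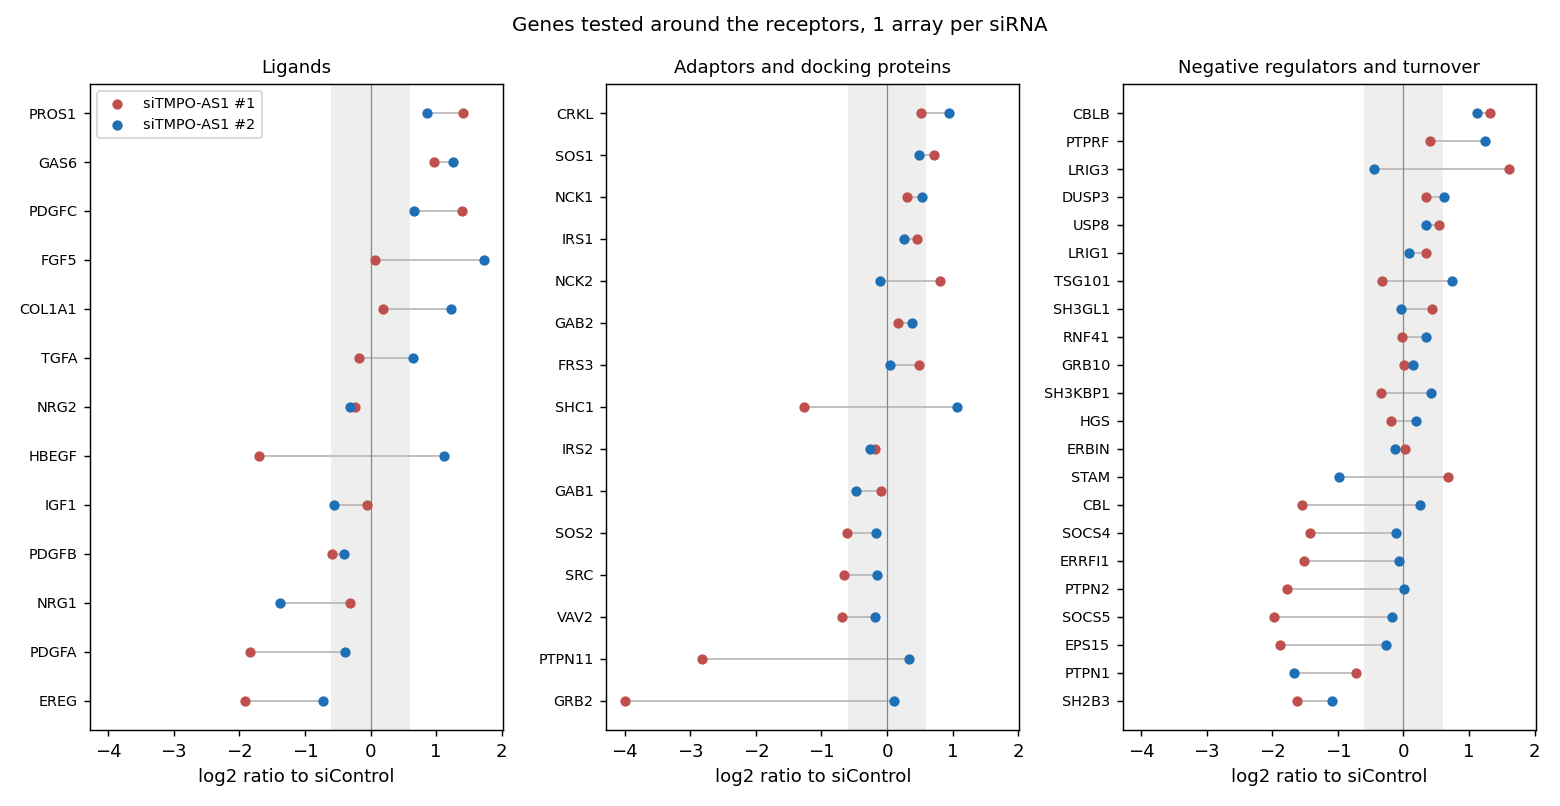
Log2 ratio to the control array (horizontal axis) of the ligand, adaptor and regulator genes tested, 1 gene per row in order of mean log2 ratio; red points are siTMPO-AS1 #1, blue points siTMPO-AS1 #2, and grey lines join them. The shaded band is 1.5-fold either side of control. GRB2 and PTPN11 lie far left with #1 only, while CBLB, GAS6, PROS1 and PDGFC lie right of the band with both siRNAs.

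Other receptor tyrosine kinases were mostly dim. Of 30 listed (Eph receptors not included), 29 had a value and 11 passed the filter, with medians of -0.05 and 0.20. The filter kept 16808 of all 33616 genes with a value. limma called 0 of the 11. With both siRNAs 0 were higher, 0 were lower and 0 went opposite ways by 1.5-fold. Over all genes tested 5.42%, 4.07% and 3.3% did so, and counts of 0 among 11 genes do not set these receptors apart. The members with 1 direction and the largest smaller ratio were MUSK, the receptor of the neuromuscular junction (log2 ratios 0.32 and 0.68), RET, the receptor of the glial cell line-derived neurotrophic factor family (-0.47 and -0.26), MERTK, the AXL relative (0.39 and 0.20), and the pseudokinase PTK7 (0.06 and 0.61). MERTK, with log2 signals of 11.01, 11.40 and 11.21, did not share the lower value of AXL with #1.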

How the data were processed

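RNA of MDA-MB-231 cells was hybridised to 3 Affymetrix arrays. Per the submitters' processing notes, the authors summarised each of 138745 probe sets to a log2 signal with RMA, run in Affymetrix Expression Console. Neither tool versions nor a genome build were stated there, so no gene coordinates of the array are printed. Array medians were 3.73, 3.75 and 3.75, and pairs of arrays shared 6 to 13 identical values. Of the probe sets, 36176 carry exactly 1 symbol in the platform annotation. Genes were kept when their mean was at or above the median gene mean. limma 3.58.1 (R 4.3.3, lmFit and eBayes, two-sided, Benjamini-Hochberg over 16808 genes) compared both siRNA arrays with the control array without further normalization. It was first tested on simulated data with much smaller noise than the spread between these arrays. That shows only that the fit returns known changes, not that it could call changes here. Each siRNA against control is a value with no test. Arrays have no read depth, and their number limits the precision. Both siRNAs share 1 control array. Named were all receptors, their ligand genes that passed the filter, the up to 5 genes of each other list with the largest smaller ratio in 1 direction, genes past 1.5-fold in opposite directions, and the genes nearest to a receptor past 1.5-fold with both siRNAs. Other genes named from these lists were chosen after their values were seen. The members and lists were chosen with earlier results of these data known. Alternatives were another normalization, other probe set rules, other filters, other folds, and leaving out either siRNA array.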

Additional observations from a re-analysis of the deposited data

How the results depend on the processing

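The receptors called by limma stayed at 0 with an intensity trend, no filter or a stricter filter on dim genes, centred or quantile-normalized arrays, the mean of all probe sets, and probe sets with several symbols. The count of receptors 1.5-fold higher on both siRNA arrays, 1, was 0 under the stricter filter, which removes ERBB3, and 0 at a fold of 2; it was 1 and 3 when either siRNA array was left out. The count 1.5-fold lower, 0, became 2 and 2 when either array was left out, and the opposite count, 1, became 0 at a fold of 2. The median log2 ratio of the receptors with siTMPO-AS1 #2, -0.09, was 0.016 with the mean of all probe sets and 0.016 with probe sets of several symbols, and -0.15 and -0.17 with centred and quantile-normalized arrays; with #1 it was -0.16, and -0.08 and -0.09 under these normalizations. Leaving out either siRNA array, which leaves no test, turned the direction of 4 mean log2 ratios: EGFR ranged from -0.16 to 0.26, ERBB2 from -0.18 to 1.25, FGFR1 from -0.37 to 0.044 and IGF1R from -0.59 to 0.85. The other 5 kept their direction under every alternative that gave a value. At a fold of 2 the ligand genes higher and lower on both arrays went from 3 and 1 to 0 and 0, and the lower and opposite regulators from 2 and 1 to 1 and 0. No paired analysis was possible because both siRNAs share 1 control array. With 1 array for each siRNA, no receptor's difference between the siRNAs could be tested. The array's sensitivity also limits what can be read from signals under the highest background control probe set. For ERBB3, FGFR1, INSR and PDGFRB that holds on every array, and for ERBB2 on the #2 array. Among other genes named, it holds on every array for SH2B3, PDGFA, PDGFB, NRG2, IGF1, MUSK, RET, FGFR4, KDR, GATA3, SPDEF and LUM.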

Other observations

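The background control probe sets, which belong to no comparison, were not alike on the 3 arrays at the AT-rich end. The probe set with the fewest G and C bases had log2 signals of 7.20 on the control array, 6.67 with siTMPO-AS1 #1 and 8.52 with siTMPO-AS1 #2 (log2 ratios -0.53 and 1.32). The next had 6.70, 6.60 and 7.43 (-0.10 and 0.73).

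Among other receptor genes, ROR1, a WNT-binding receptor, gave 14.74 on the control array and 14.78 and 13.44 on the #1 and #2 arrays (log2 ratios 0.03 and -1.30). RYK, another WNT-binding receptor, had 11.95, 12.67 and 11.85 (0.72 and -0.10). FGFR4, a fibroblast growth factor receptor, had 6.67, 5.80 and 6.70 (-0.87 and 0.02), and KDR, a receptor of vascular endothelial growth factor, had 5.61, 4.72 and 5.88 (-0.88 and 0.27). Each left the band of 1.5-fold with 1 siRNA alone, and the differences between the siRNAs were not tested. FGFR4 and KDR lay under the highest background control probe set on every array. Of the 11 other receptors tested, 1 was at least 1.5-fold higher and 2 were lower with #1 (16.6% and 18.8% of all genes). With #2, 2 were higher and 1 was lower (16.1% and 10.4% of all genes). ROR1, RYK, FGFR4 and KDR are named after their values were seen.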
